A study of Mus musculus with 100 samples.

Results

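RANK is the receptor through which RANKL turns myeloid precursors into osteoclasts, and the loci described here are 10 mouse genes of its signalling pathway and of the transcription factors below it. They were taken as every region that the authors' tables assign to Tnfrsf11a, Tyrobp, Fcer1g, Trem2, Ppp3ca, Nfatc1, Mitf, Prdm1, Bcl6 or Id2. These are 10 of the 18524 gene names in the 15 tables of ChIP-seq tag counts, and 1674 of 610301 regions. The central data are p300 and ERK1 ChIP-seq in wild type bone marrow cells at Day0 and Day4, with 2 libraries per group. The descriptions of 3 of the 4 ERK1 libraries add NCoRWT to the name. The cells came from C57BL/6 mice of 8 to 12 weeks, were kept in M-CSF for 3 days and then, as adherent cells, received M-CSF with RANKL for 4 days. The p300 Day0/Day4 table held 74 member regions of 20143 and that for ERK1 held 50 of 14957, and every one passed the filter of at least 4 tags in 1 library.

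The other tables used bone marrow-derived macrophages (BMDMs) given either vehicle (Veh) or the TLR4 agonist KLA (Kdo2 lipid A), for 6 h in the labels that state a duration. The p300 libraries titled Veh carry KLA0h in their descriptions in place of a vehicle name. In wild type BMDMs the ChIP targets were p300, ERK1, the NFκB subunit p65, the AP-1 protein Fosl2, the lineage factor PU.1, the corepressors NCoR and HDAC3, and the coactivator PGC1b. PGC1b was also profiled as DMSO_Veh, DMSO_KLA and ERKi_KLA, and NCoR as ERKi_KLA, where ERKi is the ERK inhibitor LY3214996. H3K27ac, a mark of active enhancers and promoters, was profiled with Veh and KLA in WT cells (NCoR flox/flox), in NKO cells (NCoR flox/flox, LysMCre) and in PGC1b flox/flox cells without or with LysMCre. It was also profiled in wild type cells as DMSO_Veh, DMSO_KLA and RGFP966_KLA, where RGFP966 inhibits HDAC3. LysM-Cre deletes floxed alleles in cells of the myeloid lineage, and not only in macrophages or osteoclast precursors. Each group had 2 libraries, which the labels call biological replicates. Library totals over all 70 libraries ran from 4.30 to 21.5 M tags.

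RANK, encoded by Tnfrsf11a, passes its signal through TRAF6 to NFκB, MAP kinases and AP-1. A second, costimulatory input comes from receptors that pair with the ITAM adaptors DAP12 (Tyrobp) and FcRγ (Fcer1g), with TREM2 as a partner of DAP12, and it raises calcium, which activates the phosphatase calcineurin (catalytic subunit Ppp3ca) and so the transcription factor NFATc1. NFATc1 acts with MITF and PU.1 on osteoclast genes, while BLIMP1 (Prdm1) removes brakes on this programme, among them the repressor BCL6, and ID2 is an inhibitor of basic helix-loop-helix factors that restrains it. p300 is a histone acetyltransferase whose binding marks active enhancers.

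Most p300 regions at these loci had more tags at Day4 than at Day0, as did most of all p300 regions listed. Of the 74 regions, 54 were called higher and 0 lower (adjusted p below 0.05 and more than 2-fold in edgeR's quasi-likelihood test, scaled by library totals), which is 73.0% against 62.2% higher and 0.248% lower among all 20143 regions. The median log2 fold change was 2.41 for the members (also 2.41 with the 1 region at 0 in both Day0 libraries set at its lower bound) and 1.84 for all regions. In 68 of the 74 regions both Day4 libraries lay above both Day0 libraries or both below them, beside 89.0% of all regions. Summed over the 21 Prdm1 regions, the 2 Day0 libraries held 221 and 196 tags per 10 M and the Day4 libraries 1674 and 1509. The 18 Mitf regions summed to 251 and 281 at Day0 and to 1116 and 1056 at Day4, and the 9 Tnfrsf11a regions to 129 and 78.8 and then 491 and 439. No Day0 library reached a Day4 library in any of these sums.

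This count rests on how the libraries are put on one scale. At Day0, 3.08% and 3.16% of each library's tags fell in the listed regions, and at Day4 9.61% and 9.53%, and the Day0 libraries held 11.4 and 4.70 M tags. TMM scaling, which sets the bulk of regions to no change, moved the median of all regions from 1.84 to 0.22. With it 13 member regions were called higher and 2 lower, beside 1773 and 771 of all regions, and all 13 were also called with library totals. Without Day4 replicate 1 the member count with library totals was 21, and without Day4 replicate 2 it was 20. Regions with a TMM call are therefore named as such, since their increase exceeded that of most regions. The list itself was built mostly from Day4: 65 of the 74 member regions were called as peaks in Day4 libraries only (of all regions 88.4%), 8 in both and 1 at Day0 only. A region listed from Day4 had to be high at Day4, and these 65 held 51 of the 54 calls (66.4% of all such regions were called higher), while of the 8 listed from both days 3 were called (39.6% of all such regions) and of the 1 from Day0 0. These are bulk cultures, in which fewer cells with binding and less binding per cell cannot be told apart.

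The members' regions lay far from promoters. Of the 74, 44 were annotated as intronic, 25 as intergenic and 5 as promoter, and their median distance to the nearest annotated start was 48.1 kb against 16.2 kb for all p300 regions. All 21 Prdm1 regions were intergenic in the authors' annotation, from 52.4 to 297 kb upstream of the start used, although 2 of the 21 centres lay within the longer RefSeq gene span. The stretch up to the farthest region held 0 protein-coding and 6 other RefSeq genes. All 18 Mitf regions were intronic. The 6 Nfatc1 regions were intronic too, 5 within Nfatc1 itself and 1 within the neighbouring Atp9b. Distances below are from the nearest annotated start, with a minus sign for upstream, and coordinates are in mm10 (GRCm38).

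The DNA under 5 of these regions is shown, each with the lowest p among its gene's called regions. The corresponding regions of Nfatc1 and Tyrobp are not shown. All are on the plus strand of GRCm38, from RefSeq's assembly, read 5′ to 3′. In the first pair, Prdm1 at −143.6 kb (chr10:44602195-44602422, intergenic) and Mitf at +60.3 kb (chr6:97867271-97867503, intron 1 of 9), capitals mark TTTCC, the core bound by NFAT factors, or its reverse complement GGAAA, and neither region held the AP-1 motif TGANTCA.
Prdm1 −143.6 kb: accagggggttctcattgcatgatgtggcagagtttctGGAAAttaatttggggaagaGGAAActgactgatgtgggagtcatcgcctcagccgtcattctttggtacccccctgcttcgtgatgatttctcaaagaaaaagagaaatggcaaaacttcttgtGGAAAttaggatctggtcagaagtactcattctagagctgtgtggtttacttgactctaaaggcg
Mitf +60.3 kb: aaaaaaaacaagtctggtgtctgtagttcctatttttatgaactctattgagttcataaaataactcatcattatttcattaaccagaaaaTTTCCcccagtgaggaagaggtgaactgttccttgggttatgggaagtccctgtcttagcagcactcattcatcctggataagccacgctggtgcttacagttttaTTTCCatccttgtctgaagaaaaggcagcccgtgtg
In the next 3 regions, capitals mark the AP-1 motif TGANTCA and, in the Tnfrsf11a region, also the PU.1 motif GAGGAAGT on the other strand. They are Tnfrsf11a at +9.6 kb (chr1:105790164-105790420, intron 1 of 9), Ppp3ca at +91.7 kb (chr3:136761662-136761932, intron 1 of 13) and Bcl6 at −27.6 kb (chr16:24016339-24016590, intergenic). These 3 regions also held the TTTCC core or its reverse complement, left in lower case, with 1, 1 and 2 matches.
Tnfrsf11a +9.6 kb: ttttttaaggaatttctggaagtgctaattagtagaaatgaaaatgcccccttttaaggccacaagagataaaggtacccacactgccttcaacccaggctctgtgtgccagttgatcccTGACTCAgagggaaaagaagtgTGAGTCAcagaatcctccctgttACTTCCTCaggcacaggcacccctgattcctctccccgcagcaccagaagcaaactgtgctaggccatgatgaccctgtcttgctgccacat
Ppp3ca +91.7 kb: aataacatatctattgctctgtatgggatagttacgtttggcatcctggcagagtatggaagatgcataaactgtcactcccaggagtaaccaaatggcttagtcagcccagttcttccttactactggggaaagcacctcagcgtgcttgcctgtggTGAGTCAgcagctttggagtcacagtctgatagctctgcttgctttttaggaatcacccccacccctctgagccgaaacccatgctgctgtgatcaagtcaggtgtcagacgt
Bcl6 −27.6 kb: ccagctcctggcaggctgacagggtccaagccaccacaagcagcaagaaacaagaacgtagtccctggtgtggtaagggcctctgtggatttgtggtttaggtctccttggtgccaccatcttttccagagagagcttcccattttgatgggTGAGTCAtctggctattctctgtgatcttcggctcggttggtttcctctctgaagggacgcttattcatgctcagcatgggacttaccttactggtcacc

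Across the 200 bp around each centre, searched on both strands, the AP-1 motif was present in 35.1% of the 74 member regions and 36.8% of all p300 regions. TTTCC, which is also the end of the NFκB motif searched (GGG, any 2 bases, TTTCC), was present in 68.9% and 61.6%, the PU.1 motif in 12.2% and 9.46%, that NFκB motif in 4.05% and 3.37%, and the E-box CACGTG read by MITF in 2.70% and 5.92%. No difference between these shares was tested. Among the genes, AP-1 motifs were found in 7 of 9 Tnfrsf11a regions, 6 of 18 Mitf regions and 5 of 21 Prdm1 regions, and TTTCC in 8 of 9 Ppp3ca regions and 14 of 21 Prdm1 regions. A match is a string of letters and not a measured binding site.

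**Figure D1:**
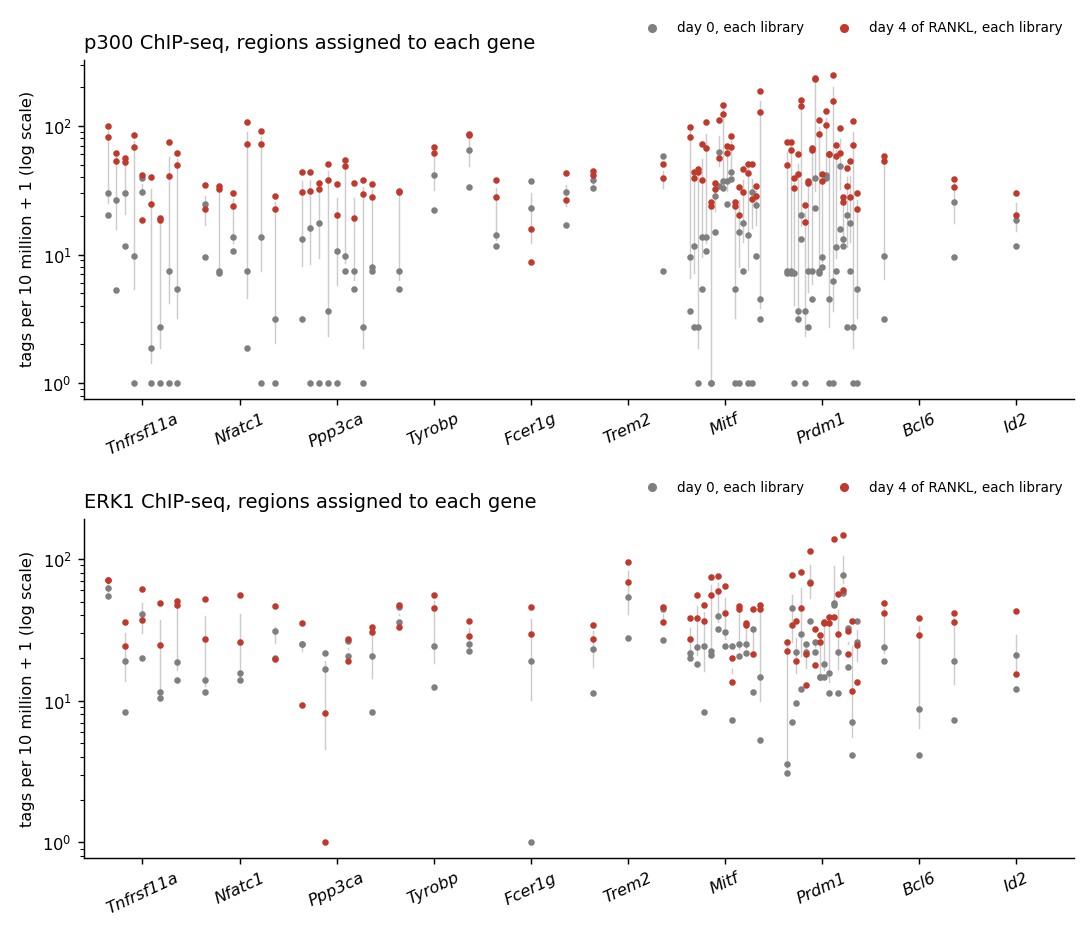
p300 and ERK1 tags per 10 M tags plus 1, on a log axis, in each of the 2 Day0 and 2 Day4 libraries, at every region of the 10 genes ordered by distance to the start. For p300 the Day4 points lie above the Day0 points in all 21 Prdm1 regions, and the groups did not overlap in 89.0% of all p300 regions. By the separate measure of calls, 0 of 50 ERK1 regions were called, beside 2.35% of all ERK1 regions.

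At Tnfrsf11a, the receptor gene (chr1:105780673-105849444, plus strand), 8 of 9 p300 regions were called higher and 0 lower, with a median log2 fold change of 3.67. Day0 values ran from 0 to 38.3 tags per 10 M and Day4 values from 17.6 to 98.8. At +9.6 kb, in its first intron, p300 gave 8.79 and 0 tags per 10 M at Day0 and 67.5 and 83.9 at Day4. The log2 fold change was 3.67 ± 0.68 (SE; edgeR adjusted p = 0.00095), and it was 2.06 and not called with TMM. The region with the most tags, at −38.0 kb (chr1:105742560-105742790), lay in intron 24 of 28 of the neighbouring gene Relch. It rose from 29.0 and 19.2 to 98.8 and 80.5 (1.83 ± 0.42, edgeR adjusted p = 0.003), with 0.21 under TMM, and the call was lost without Day4 replicate 1 (1.70). One region was apart from the rest: at +20.7 kb the libraries gave 29.9 and 38.3, then 17.6 and 40.8, and TMM called it lower (−1.82). It was chosen after its values were seen.

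The genes of the costimulatory input had few calls. At Tyrobp 1 of 3 regions was called higher, at Fcer1g 0 of 3 and at Trem2 0 of 2, with median log2 fold changes of 0.97, 0.63 and 0.30 against 1.84 for all regions. The Tyrobp call, at −20.5 kb, was 4.40 and 6.39 tags per 10 M at Day0 and 30.3 and 29.5 at Day4 (2.53 ± 0.70, edgeR adjusted p = 0.0086), and it was lost without either Day4 library. The Tyrobp promoter region at −0.9 kb gave 32.5 and 63.9, then 84.1 and 86.2 (0.89 ± 0.41, edgeR adjusted p = 0.070). The Trem2 promoter gave 36.9 and 31.9 at Day0 and then 44.0 and 40.8 (0.29 ± 0.47, edgeR adjusted p = 0.58), and its TMM value was −1.33, not called.

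At Fcer1g no region was called with library totals. The promoter region at −0.4 kb gave 13.2 and 10.6 tags per 10 M at Day0 and 37.2 and 27.2 at Day4 (1.39 ± 0.64, edgeR adjusted p = 0.069; −0.22 with TMM). The region at +1.1 kb, chosen after its values were seen and the single member region listed from Day0 only, went from 22 and 36.2 to 7.82 and 14.7. Its log2 fold change of −1.32 ± 0.66 was not called (edgeR adjusted p = 0.093), and TMM called it lower at −2.91. Under TMM both values are below 0, and whether the regions differ from each other was not tested.

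At the genes of the calcium branch most p300 regions were called higher with library totals, as were 62.2% of all p300 regions (median 1.84). At Ppp3ca, the calcineurin catalytic subunit (chr3:136669714-136937727, plus strand), 8 of 9 regions were called higher, 0 of them with TMM, and the median was 2.16. At +91.7 kb p300 went from 2.64 and 0 to 37.2 and 49.9 tags per 10 M (4.49 ± 0.88, edgeR adjusted p = 0.0013; 2.91 with TMM), and the call was lost without Day4 replicate 2 (4.39). The Day0 values there are 3 tags in all, and the ratio of 23.1 had an exact 95% counting interval of 7.62 to 114. The region with the most tags, at +125.0 kb, went from 8.79 and 6.39 to 47.9 and 53.3 (2.65 ± 0.60, edgeR adjusted p = 0.0029), and the promoter from 12.3 and 2.13 to 43.0 and 29.5 (2.07 ± 0.72, edgeR adjusted p = 0.025). Both were lost without either Day4 library.

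At Nfatc1, the factor that calcineurin activates (chr18:80606205-80713071, minus strand), 4 of 6 regions were called higher, with a median of 3.29. Day0 values ran from 0 to 23.7 tags per 10 M and Day4 values from 21.5 to 107. At +47.5 kb, in intron 6 of 9 (chr18:80660525-80660757), p300 gave 0.879 and 6.39 at Day0 and 107 and 71.5 at Day4. The log2 fold change was 5.02 ± 0.70 (edgeR adjusted p = 0.00026). TMM gave 3.42 and also called it, and the call held without any 1 of the 4 libraries. 1 tag was worth 0.879 per 10 M in Day0 replicate 1, so the lower Day0 value is a single tag. A neighbour at +52.3 kb, chosen after its values were seen, went from 0 and 12.8 to 91.0 and 71.5 (4.23).

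Mitf, a bHLH-ZIP factor of the osteoclast and melanocyte lineages (chr6:97807002-98021360, plus strand), had 12 of 18 p300 regions called higher, 4 of them with TMM, and 0 lower. Its regions spanned 0 to 61.7 tags per 10 M at Day0 and 19.3 to 186 at Day4. The intronic region at +60.3 kb, printed above, rose from 3.52 and 2.13 to 127 and 186. Its log2 fold change was 5.60 ± 0.53 (edgeR adjusted p = 5.9e-05), 4.00 and called with TMM, and called without any 1 of the 4 libraries. The region with the most tags, at +13.7 kb, was bound already at Day0, with 31.6 and 36.2, and rose to 123 and 144 (1.99 ± 0.36, edgeR adjusted p = 0.00088), but only 0.38 with TMM. At +5.5 kb both Day0 libraries held 0 tags and the Day4 libraries 24.5 and 22.7, which is at least 12.6-fold higher against a floor of 3 tags over the Day0 group. It was chosen after its values were seen.

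Prdm1, the repressor BLIMP1 (chr10:44437174-44528558, minus strand), had the most regions: 20 of 21 were called higher, 7 of them with TMM, and in 21 of 21 the groups did not overlap. Its log2 fold changes ran from 1.13 to 6.04 with a median of 3.26. At −143.6 kb, printed above, p300 went from 5.27 and 0 to 246 and 154 tags per 10 M (5.74 ± 0.58, edgeR adjusted p = 7.2e-05; 4.14 and called with TMM). The region with the most tags, at −201.0 kb (chr10:44659632-44659875), was bound at Day0 with 22 and 38.3 and rose to 230 and 236 (3.04 ± 0.37, edgeR adjusted p = 0.00014; 1.42 and called with TMM). The region at −60.2 kb, chosen after its values were seen, went from 1.76 and 0 to 109 and 70.3 (6.04 ± 0.74). With 2 tags at Day0 the ratio was 73.0, with an exact 95% counting interval of 19.9 to 608.

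Bcl6, a repressor that BLIMP1 is known to lower in osteoclasts, and Id2 had few regions. At Bcl6, 1 of 2 was called higher: the region at −27.6 kb went from 8.79 and 2.13 to 57.7 and 52.2 tags per 10 M (3.06 ± 0.65, edgeR adjusted p = 0.0020; 1.45 and not called with TMM), and it was lost without Day4 replicate 1 (3.07). At Id2, the single region, at the promoter, gave 17.6 and 10.6 and then 29.3 and 19.3 (0.71 ± 0.64, edgeR adjusted p = 0.32). Its groups did not overlap, but TMM gave −0.90.

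**Figure D2:**
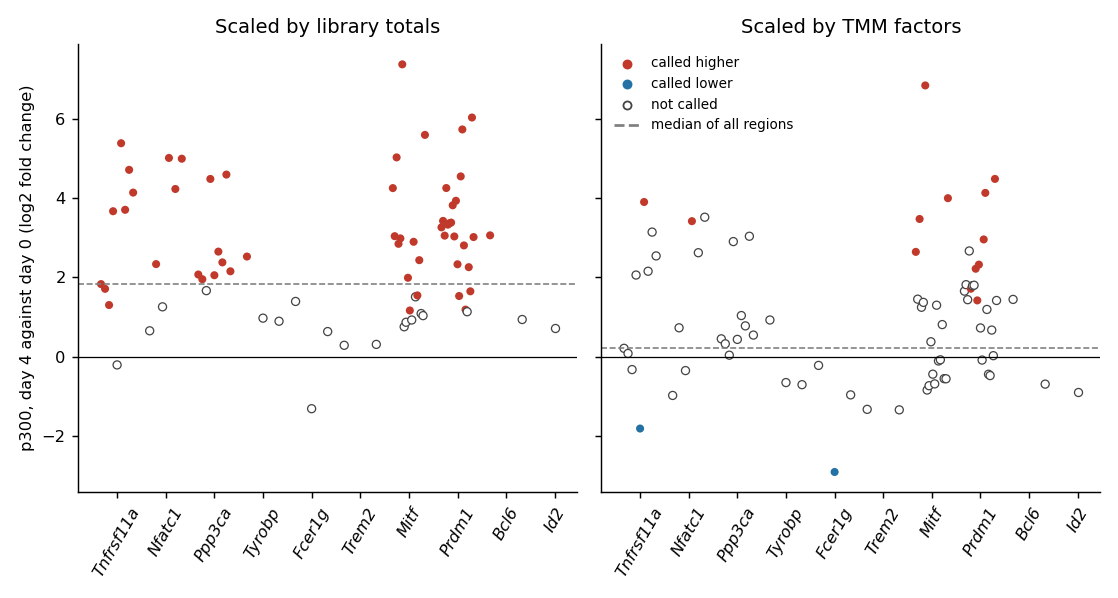
log2 fold change of p300 at Day4 over Day0 for each region of the 10 genes, scaled by library totals on one panel and by TMM on the other. Red points were called higher, blue points lower and open points not called, and dashed lines mark the median of all regions, at 1.84 and 0.22.

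The p300 gains were then set beside the regions seen in BMDMs. Of the 74 regions, 16 had no region within 500 bp in any of the 13 BMDM tables (21.6%, against 13.6% of all p300 regions): 5 at Mitf, 3 each at Nfatc1, Ppp3ca and Tnfrsf11a, and 2 at Prdm1. Their median log2 fold change was 4.25 and 15 of 16 were called higher. The 16 regions shared with all 13 tables had a median of 1.35 with 9 called higher, and the 42 between had 2.38 with 30 called higher. Over all p300 regions the median was 3.63 over the 2746 unshared regions, of which 87.8% were called higher, 1.72 over those between (56.9%) and 1.61 over those shared with all 13 tables (62.4%). With TMM the medians of the 16 unshared and the 16 fully shared regions were 2.64 and −0.27, beside 2.04 and −0.01 for all regions. By target, 74.3% of member regions lay near a p300 region of BMDMs, 67.6% near an NCoR region and 68.9% near a PU.1 region, beside 78.2%, 73.6% and 63.8% of all p300 regions. These shares are descriptions, and the differences between sharing classes were not tested.

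Other genes of the pathway were set beside the members in lists, here and in the next paragraph. Of all p300 regions 62.5% were called in either direction, with a median of 1.84 (1773 higher and 771 lower with TMM). The lists' shares ran from 60.7% (ITAM and calcium) to 67.9% (TRAF6 and NFκB), with 79.3% for effectors. The region named for each list is its called region with the lowest p, and so an extreme of the list. Among TRAF6 and NFκB genes 19 of 28 p300 regions were called higher and 0 lower (median 1.79, 6 with TMM), with Traf2 at +12.5 kb going from 23.7 and 10.6 to 118 and 138 tags per 10 M (2.76 ± 0.42; 1.14, not called, with TMM). Among AP-1 genes 54 of 82 were called higher (median 2.22, 16 with TMM and 1 lower). A region 40.0 kb from Fos, the AP-1 gene that osteoclasts require, went from 3.52 and 8.52 to 476 and 468 (6.49 ± 0.46; 4.88 with TMM). Among genes of ITAM and calcium signalling 34 of 56 were called higher (median 2.05, 4 with TMM), with the calcineurin regulator Rcan1 at −23.6 kb at 7.03 and 6.39 and then 150 and 154 (4.45 ± 0.45; 2.83 with TMM).

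Lineage genes had 18 of 28 regions higher and 0 lower (median 1.74; 1 higher and 1 lower with TMM). Their named region lay at the M-CSF receptor gene Csf1r, at −18.2 kb, with 3.52 and 0 and then 70.4 and 57.9 (4.66 ± 0.75; 3.07 with TMM). Genes known as repressors or brakes had 37 of 57 higher and 1 lower (median 1.81), and 3 higher and 5 lower with TMM. Under TMM most of the higher calls were lost, and the 5 lower regions were 4 at Lilrb4a and 1 at Id3. The NFκB inhibitor gene Nfkbia rose at its promoter from 20.2 and 12.8 to 170 and 116 (3.02 ± 0.42; 1.40 with TMM). The 1 region called lower with library totals was at −3.7 kb of Lilrb4a, an inhibitory receptor, and fell from 20.2 and 29.8 to 6.85 and 5.67 (−1.90 ± 0.62; −3.52 with TMM). Effector genes of bone resorption had 46 of 58 higher and 0 lower (median 2.37, 13 with TMM). At +11.2 kb of the calcitonin receptor gene Calcr both Day0 libraries held 0 tags and the Day4 libraries 142 and 93.0, at least 62.9-fold higher against the floor of 3 tags.

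p300 tags were also summed at marker genes of several cell types. Over all p300 regions the sums were 308146 and 316318 tags per 10 M at Day0 and 960773 and 953362 at Day4. A rise in the sum of a list is therefore not by itself a sign of a cell type. At 10 of 10 osteoclast marker genes with regions, summed tags were 782 and 673 per 10 M at Day0 and 3848 and 3503 at Day4, and at 7 of 7 macrophage markers 567 and 624 and then 1262 and 1410. Of the T cell, B cell, erythroid and stromal lists, 1 gene each had any region. Their sums were 0.879 and 0 and then 45.0 and 30.6 (T cell), 131 and 123 and then 269 and 280 (B cell), 49.2 and 27.7 and then 125 and 116 (erythroid), and 56.3 and 44.7 and then 268 and 288 (stroma and osteoblast, at Runx2). None of the 4 neutrophil and progenitor markers had a region. The part of other cell types in the p300 values was not tested.

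ERK1 binding did not pass the test at any of these loci. The descriptions of both Day0 libraries and Day4 replicate 1 carry NCoRWT, whereas the Day4 library titled replicate 2 is described as rep3 without NCoRWT and with a later date code. Its regions were listed from Day4 only in 29 cases, from both days in 13 and from Day0 only in 8, and the share of tags in all listed regions went from 2.79% and 2.98% to 6.46% and 4.50%. Of the 50 ERK1 regions 0 were called by edgeR, against 2.35% of all 14957 regions (348 higher and 4 lower). Of the 50, 17 had an unadjusted p below 0.05 (32.0% of all regions). TMM and DESeq2's Wald test also called 0 of the 50. With TMM 0 of all 14957 regions were called, so its 0 is not particular to the members. The Pearson correlation between the 2 ERK1 libraries was 0.57 at Day0 and 0.49 at Day4, against 0.95 and 0.93 for p300. The median log2 fold change was 0.96 for members and 1.0 for all regions (0.00 and 0.04 with TMM), and in 34 of 50 regions the groups did not overlap, beside 68.7% of all regions. The lowest adjusted p values, in regions chosen after their values were seen, were at Prdm1 −270.9 kb, with 2.58 and 2.10 tags per 10 M at Day0 and 24.9 and 21.5 at Day4 (3.22 ± 0.91, edgeR adjusted p = 0.056), and at Mitf +60.3 kb, with 4.30 and 13.7 and then 43.6 and 46.6 (2.34 ± 0.70, edgeR adjusted p = 0.063). The Mitf region is the one with the lowest p for p300. At Bcl6 +3.3 kb the values were 7.75 and 3.15 and then 28.0 and 37.0 (2.52 ± 0.76, edgeR adjusted p = 0.063).

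The strongest ERK1 regions were bound already at Day0. The region with the most ERK1 tags at Prdm1, at −130.7 kb, gave 56.8 and 76.7 at Day0 and 148 and 59.7 at Day4 (0.63), with the Day4 libraries on either side of the Day0 pair. The Trem2 promoter gave 26.7 and 52.5 and then 94.9 and 68.1 (1.04 ± 0.53, edgeR adjusted p = 0.17). At Tnfrsf11a −38.0 kb the values were 53.4 and 60.9 and then 70.0 and 70.5 (0.30), and at Tyrobp −19.3 kb 44.8 and 34.7 and then 46.7 and 32.3 (−0.02). Without either Day0 library 2 regions were called.

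The KLA response of BMDMs was set beside these values to see what another TRAF6-dependent receptor, TLR4, did at the same genes. In p300, 86 of 199 member regions were called higher and 28 lower with KLA, beside 42.1% and 12.9% of all regions. p65 was higher at 89 of 145 and lower at 6 (all regions 57.0% and 5.43%), and Fosl2 higher at 18 of 89 and lower at 1 (11.4% and 4.19%). ERK1 was higher at 10 of 80 and lower at 5 (10.3% and 2.53%). PU.1 was higher at 5 of 142 and lower at 26 (4.53% and 21.7%). With TMM these counts were 66 and 51 for p300, 51 and 26 for p65, 27 and 4 for Fosl2, 7 and 6 for ERK1, and 14 and 10 for PU.1. For PU.1 the higher calls then outnumbered the lower ones. Member calls of both directions fell to 61 for p65 without KLA replicate 2, to 5 and 4 for ERK1 without KLA replicate 1 and 2, and to 0 for Fosl2 without either vehicle library, while for Fosl2 they were 39 and 41 without KLA replicate 1 and 2. TMM moved the median of all regions by −0.52 for p300, −1.22 for p65 and 0.42 for PU.1. The members' shares were within a few points of those of all regions, other than for Fosl2, where 18 of 89 stood against 11.4%. A region called as a peak only with KLA had to be high with KLA, in these and the corepressor comparisons. Such regions made up 37.1% of the members' Fosl2 regions and 18.1% of all Fosl2 regions. For p65 they made up 70.3% and 64.8%. The Fosl2 excess therefore cannot be read apart from how the regions were listed.

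The corepressors moved in both directions. NCoR was higher at 44 and lower at 26 of 156 member regions (all regions 23.4% and 16.7%) and HDAC3 higher at 45 and lower at 19 of 146 (27.5% and 11.3%), with 46 and 26, and 42 and 29, under TMM. Prdm1 held the most gains of any member, with 17 higher and 3 lower of 45 for NCoR and 20 and 3 of 47 for HDAC3. Mitf had 8 and 2 of 31 for NCoR and Bcl6 7 and 1 of 16. Nfatc1 had 0 higher and 3 lower of 9 for NCoR and 0 and 2 of 8 for HDAC3, and Trem2 0 and 3 of 3 and 0 and 2 of 3. PGC1b was higher at 29 and lower at 9 of 122 (16.4% and 6.35%), and in the separate experiment with DMSO higher at 42 and lower at 2 of 147 (16.4% and 1.23%). Leaving out 1 library lowered the calls of both directions to 35 and 38 for NCoR (KLA replicate 1 and 2), 20 and 23 for HDAC3 (Veh replicate 1 and 2), 19 and 18 for PGC1b (Veh replicate 1 and 2) and 26 for PGC1b with DMSO (DMSO_Veh replicate 1).

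**Figure D3:**
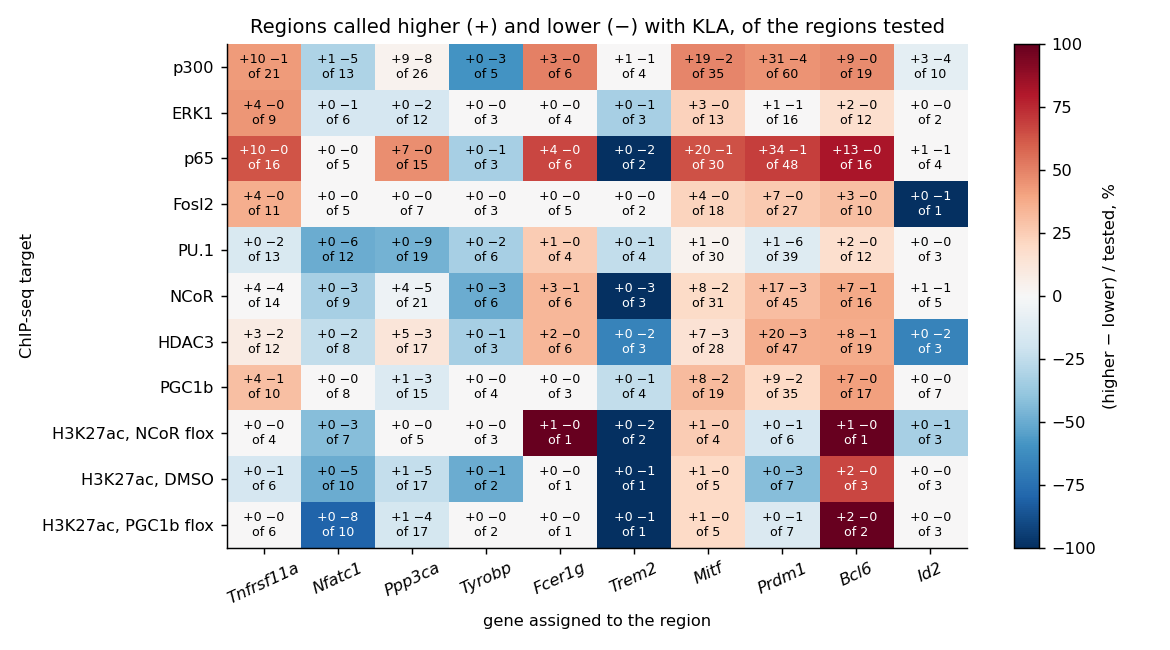
Regions called higher (plus) and lower (minus) with KLA, of those tested, for each of the 10 genes (columns) in 11 ChIP comparisons (rows), scaled by library totals. Colour gives the percentage called higher minus the percentage called lower, and for p300 the Nfatc1 column shows 1 higher and 5 lower of 13 while the Prdm1 column shows 31 and 4 of 60.

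By gene, the p300 calls with KLA were mostly higher at Prdm1, Mitf, Tnfrsf11a and Bcl6 and mostly lower at Nfatc1 and Tyrobp. Prdm1 had 31 regions higher and 4 lower of 60 (25 and 10 with TMM), Mitf 19 and 2 of 35 (13 and 3), Tnfrsf11a 10 and 1 of 21 (9 and 3) and Bcl6 9 and 0 of 19 (7 and 2). Nfatc1 had 1 higher and 5 lower of 13 (1 and 10 with TMM), Tyrobp 0 and 3 of 5 and Ppp3ca 9 and 8 of 26 (5 and 12). For p65, Prdm1 had 34 higher of 48, Mitf 20 of 30 and Bcl6 13 of 16, whereas Nfatc1 had 0 higher and 0 lower of 5 (0 and 4 with TMM) and Trem2 0 and 2 of 2. Regions of one gene share a locus and are not replicates.

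At the Trem2 promoter, 4 factors were lower with KLA. NCoR fell there from 208 and 257 tags per 10 M to 51.0 and 44.3 (−2.29 ± 0.23, edgeR adjusted p = 9.0e-05), HDAC3 from 188 and 180 to 46.3 and 50.9 (−1.93 ± 0.38, edgeR adjusted p = 3.7e-06) and p65 from 120 and 105 to 44.1 and 41.0 (−1.40 ± 0.27, edgeR adjusted p = 0.0011). PU.1 fell from 217 and 202 to 67.4 and 70.7 (−1.60 ± 0.12, edgeR adjusted p = 1.9e-25), and was also called with TMM (−1.19). All 8 KLA libraries lay below all vehicle libraries of the same target. p300 gave 113 and 102 and then 54.2 and 56.7 (−0.96 ± 0.21), short of the 2-fold limit, and was called with TMM (−1.47) and without Veh replicate 2 (−1.03). ERK1 gave 80.2 and 103 and then 41.8 and 39.5 (−1.17 ± 0.38, edgeR adjusted p = 0.062), Fosl2 134 and 105 and then 46.6 and 44.4 (−1.39, edgeR adjusted p = 0.25), and PGC1b 36.4 and 61.4 and then 32.8 and 30.3 (−0.64, edgeR adjusted p = 0.22).

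The Tyrobp promoter, of the adaptor that carries TREM2, fell as well. p300 went from 52.0 and 45.3 to 11.8 and 16.2 (−1.80), p65 from 116 and 139 to 18.0 and 36.9 (−2.21) and HDAC3 from 69.1 and 64.1 to 18.2 and 43.9 (−1.22). NCoR went from 50.2 and 58.8 to 21.1 and 26.3 (−1.20) and was not called without either KLA library, and PU.1 from 225 and 216 to 89.6 and 118 (−1.09; −0.67 and not called with TMM). These 5 were called by edgeR with library totals. At Fcer1g, the other adaptor, p65 rose at +3.2 kb from 11.4 and 27 to 167 and 209 (3.30). This is a single region of the 6 listed for p65 at that gene, and 57.0% of all p65 regions were called higher.

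Mitf and Prdm1 gained factors at the regions that had their lowest p for p300 at Day4. At Mitf +60.3 kb p65 rose from 28.0 and 43.8 to 284 and 337 (3.12 ± 0.26, edgeR adjusted p = 4.1e-06; 1.90 and called with TMM) and p300 from 59.5 and 46.0 to 174 and 184 (1.76 ± 0.19, edgeR adjusted p = 1.1e-06; 1.24 and called with TMM). PGC1b rose from 22.3 and 27 to 73.2 and 69.2 (1.52 ± 0.33, edgeR adjusted p = 0.0028), a call lost without either vehicle library. Both KLA libraries were above both vehicle libraries in each. PU.1 at this region gave 133 and 143 and then 274 and 256 (0.94, not called; 1.36 and called with TMM), NCoR 103 and 94.2 and then 141 and 175 (0.68), and Fosl2 84.6 and 70.3 and then 233 and 263 (1.68, edgeR adjusted p = 0.094).

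At Prdm1 −143.5 kb p65 rose from 35 and 31.7 to 216 and 252 (2.81 ± 0.25, edgeR adjusted p = 5.6e-06; 1.58 and called with TMM) and p300 from 115 and 101 to 296 and 286 (1.43 ± 0.15, edgeR adjusted p = 9.0e-07; 0.91 and not called with TMM). NCoR rose from 77.7 and 144 to 260 and 255 (1.22 ± 0.26, edgeR adjusted p = 0.0037) and HDAC3 from 100 and 138 to 250 and 379 (1.38 ± 0.37, edgeR adjusted p = 0.00098). The NCoR call was lost without Veh replicate 1 (0.84) and the HDAC3 call without either vehicle library. PU.1 was bound before and after, at 214 and 220 and then 207 and 236 (0.03). In BMDMs both regions held p300 and PU.1 before KLA. At Day0 of the osteoclast cultures p300 there was at or below 5.27 tags per 10 M. Both regions were picked by a low p for the Day4 gain, which favours low Day0 values. Those cultures and the BMDMs are separate experiments with separate tables, so these levels cannot be compared directly.

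**Figure D4:**
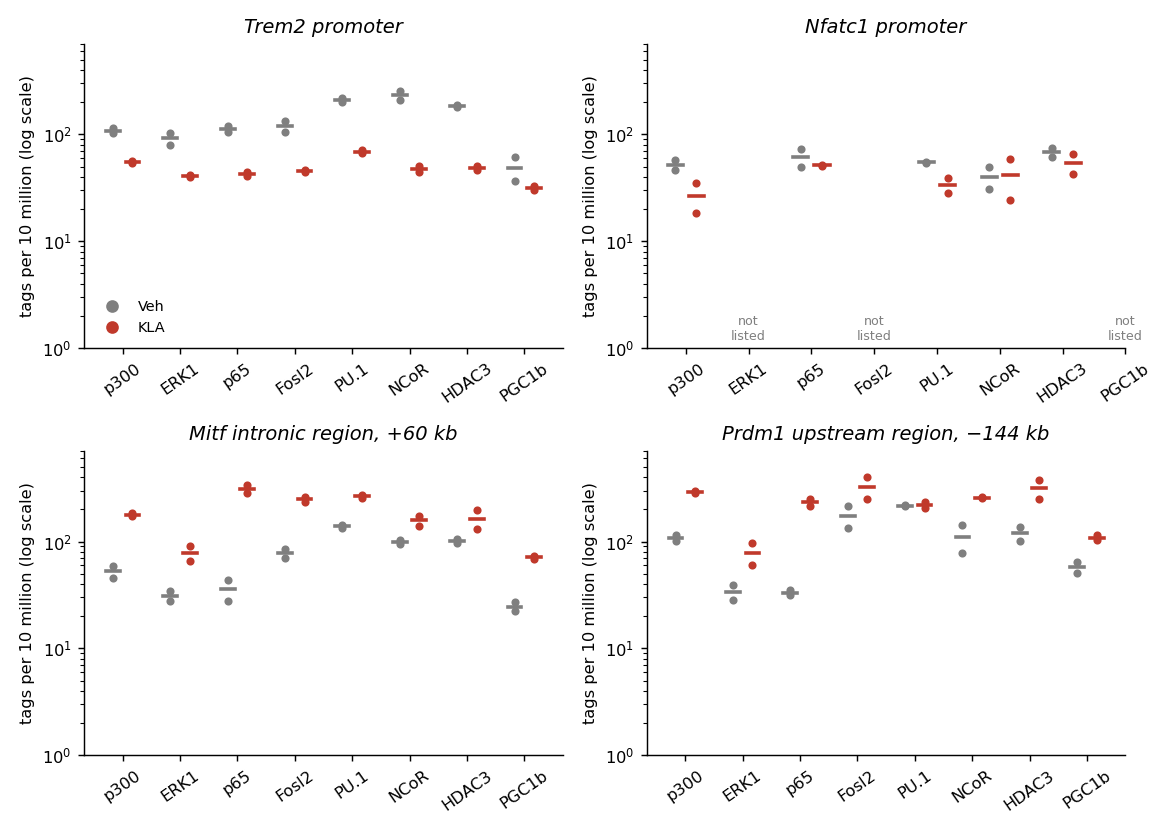
Tags per 10 M, on a log axis, in each vehicle and KLA library and as group means for 8 ChIP targets at the Trem2 promoter, the Nfatc1 promoter, Mitf +60 kb and Prdm1 −144 kb. The KLA points are below the vehicle points for NCoR at the Trem2 promoter (51.0 and 44.3 against 208 and 257) and above them for p65 at Mitf (284 and 337 against 28.0 and 43.8), and the Nfatc1 promoter is not listed for ERK1, Fosl2 and PGC1b.

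Bcl6 and Tnfrsf11a held strong single regions. At Bcl6 +4.9 kb p300 rose from 37.6 and 36.1 to 287 and 267 with KLA (2.91 ± 0.18, edgeR adjusted p = 1.8e-09; 2.39 and called with TMM). At Bcl6 −27.6 kb, the region with the Day4 gain, NCoR fell from 95.6 and 63.6 to 24.3 and 33.9 (−1.44, edgeR adjusted p = 0.0073), which was lost without KLA replicate 1, and p300 gave 85.2 and 61.8 and then 47.6 and 45.9 (−0.65; −1.17 and called with TMM). At Tnfrsf11a +83.5 kb, beyond the end of the 68.8 kb gene, p65 rose from 2.63 and 1.86 to 407 and 380 (7.38 ± 0.34, edgeR adjusted p = 6.4e-07; 6.19 and called with TMM). Fosl2 there gave 0 and 16.8 and then 344 and 573 (5.66, edgeR adjusted p = 2.0e-08), which was lost without either vehicle library. At Tnfrsf11a +9.9 kb, near the Day4 gain, NCoR fell from 75.3 and 106 to 32.4 and 46.3 (−1.19, edgeR adjusted p = 0.012), and the call was lost without any 1 of 3 of its 4 libraries.

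The named regions of Nfatc1, Ppp3ca and Id2 were lower with KLA or not called. At the Nfatc1 promoter p300 gave 57.0 and 46.7 and then 34.8 and 18.4 (−0.96, not called; −1.48 and called with TMM), while NCoR gave 49.0 and 30.6 and then 24.3 and 58.8 (0.08), with overlapping groups. At Ppp3ca +55.6 kb NCoR fell from 200 and 204 to 55.1 and 74.7 (−1.63), HDAC3 from 204 and 216 to 86.2 and 98.3 (−1.20) and PU.1 from 279 and 317 to 110 and 113 (−1.41), all called by edgeR. At the Id2 promoter NCoR fell from 57.4 and 50.6 to 11.3 and 13.8 (−2.08).

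ERK inhibition with KLA was compared with KLA alone. For PGC1b 0 of 147 member regions were called (0.286% of all regions), and TMM and DESeq2's Wald test also called 0. That count does not show that the inhibitor had no effect. At Prdm1 −143.5 kb PGC1b was 56.8 and 53.9 in DMSO_Veh, 199 and 137 in DMSO_KLA and 175 and 140 in ERKi_KLA, and at Mitf +60.3 kb 27.6 and 37.9, then 90.8 and 87.8, then 92.3 and 90.5. The log2 difference of ERKi_KLA from DMSO_KLA was −0.09 and 0.03. The rise from DMSO_Veh to DMSO_KLA, 1.59 and 1.46, shares the DMSO_KLA libraries with it.

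For NCoR 3 member regions were called higher and 76 lower of 161 with ERKi_KLA (0.634% and 48.6% of all regions), and 4 higher and 7 lower with TMM, which moved the median of all regions by 1.16. The calls of both directions fell to 38 without KLA replicate 1 and 42 without KLA replicate 2. The ERKi libraries carry a later date stamp than the KLA libraries, so that inhibitor and date cannot be told apart, and the KLA libraries are those of the KLA against Veh comparison. At Prdm1 −130.8 kb NCoR fell from 840 and 726 to 252 and 244 (−1.66; −0.49 with TMM), and at −143.5 kb from 260 and 255 to 96.4 and 133 (−1.17; 0.00 with TMM). At the Nfatc1 promoter it fell from 24.3 and 58.8 to 1.69 and 7.76 (−3.12 ± 0.68, edgeR adjusted p = 0.0023). There TMM gave −1.97, not called, and the call was lost without KLA replicate 2 (−2.34). By gene, 28 of 47 Prdm1 regions were lower and 15 of 31 Mitf regions (3 and 0 with TMM).

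Scaled by library totals, H3K27ac regions called at the members were mostly lower with KLA. The same held for the called regions of the whole set with DMSO and in PGC1b flox/flox cells. In WT cells 3 of 36 regions were called higher and 7 lower (6.49% and 3.72% of all regions), in DMSO-treated cells 4 and 16 of 55 (6.73% and 28.1%) and in PGC1b flox/flox cells 4 and 14 of 54 (5.22% and 25.6%). With TMM these were 2 and 8, 6 and 9, and 7 and 6, and the median of all regions moved by −0.14, 0.42 and 0.43. In PGC1b flox/flox cells slightly more regions were then called higher than lower. Nfatc1 held 8 of the 14 lower regions in PGC1b flox/flox cells and 5 of 16 in DMSO-treated cells (3 and 3 with TMM).

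The Trem2 promoter lost the mark in all 3 experiments. It fell from 691 and 727 to 127 and 71.5 tags per 10 M with DMSO (−2.82 ± 0.21, edgeR adjusted p = 2.4e-38), from 604 and 655 to 165 and 188 in PGC1b flox/flox cells (−1.83 ± 0.09), and from 30.9 and 38.7 to 13.2 and 8.96 in WT cells (−1.64 ± 0.39, edgeR adjusted p = 0.0022), where the call was lost without Veh replicate 2. The WT table counted other regions, so its level is not set against the others. At the Nfatc1 promoter H3K27ac fell from 90.2 and 84.0 to 33.3 and 32.4 in WT cells (−1.40 ± 0.26, edgeR adjusted p = 7.1e-05) and from 197 and 176 to 80.2 and 76.3 in PGC1b flox/flox cells (−1.26 ± 0.16; −0.83 with TMM), and gave 93.9 and 99.4 and then 61.5 and 33.7 with DMSO (−1.0, not called). Prdm1 at −130.8 kb fell from 218 and 210 to 23.3 and 26.9 with DMSO (−3.09) and from 62.3 and 85.9 to 11 and 9.92 in PGC1b flox/flox cells (−2.80).

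Single regions at Mitf, Bcl6 and Fcer1g gained the mark. At Mitf +59.7 kb, next to the p300 region at +60.3 kb, H3K27ac rose from 179 and 188 to 574 and 464 with DMSO (1.5), from 154 and 143 to 429 and 416 in PGC1b flox/flox cells (1.5) and from 20.2 and 20.9 to 65.4 and 92.4 in WT cells (1.93). At Bcl6 −1.6 kb it rose from 113 and 114 to 346 and 252 with DMSO (1.40 ± 0.21, edgeR adjusted p = 3.1e-10; 1.83 with TMM) and from 163 and 155 to 383 and 422 in PGC1b flox/flox cells (1.34). At the Fcer1g start it rose from 67.5 and 77.9 to 161 and 190 in WT cells (1.26).

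With HDAC3 inhibited, the mark in KLA-treated cells was higher at a part of these regions. Between RGFP966_KLA and DMSO_KLA 16 of 55 member regions were called higher and 0 lower (26.9% and 9.53% of all regions), and 7 higher and 2 lower with TMM, which moved the median of all regions by −0.34. Ppp3ca held 8 of the 16, Nfatc1 3, Bcl6 2, and Prdm1, Tnfrsf11a and Trem2 1 each. At the Trem2 promoter the DMSO_KLA values of 127 and 71.5 stood against 321 and 258 with RGFP966 (1.53 ± 0.21, edgeR adjusted p = 1.2e-11; 1.17 and called with TMM), between the DMSO_KLA and DMSO_Veh libraries. At Nfatc1 +3.2 kb H3K27ac was 218 and 226 in DMSO_Veh, 36.3 and 29.5 in DMSO_KLA and 77.7 and 76.5 in RGFP966_KLA (1.22 for the inhibitor; 0.88 and not called with TMM). At the Nfatc1 promoter, 29.6 and 32.5 with RGFP966 lay below both DMSO_KLA libraries (−0.64, not called). Both comparisons use the DMSO_KLA libraries, so that a high or low value in those 2 libraries enters both.

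Other regions were higher with RGFP966 than with DMSO in KLA-treated cells. Ppp3ca at +72.8 kb went from 15.5 and 9.26 to 64.5 and 52.8 (2.20) and at +27.9 kb from 36.3 and 29.5 to 122 and 104 (1.77). Tnfrsf11a at +20.7 kb went from 51.8 and 38.7 to 163 and 156 (1.80). All were called by edgeR with library totals.

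**Figure D5:**
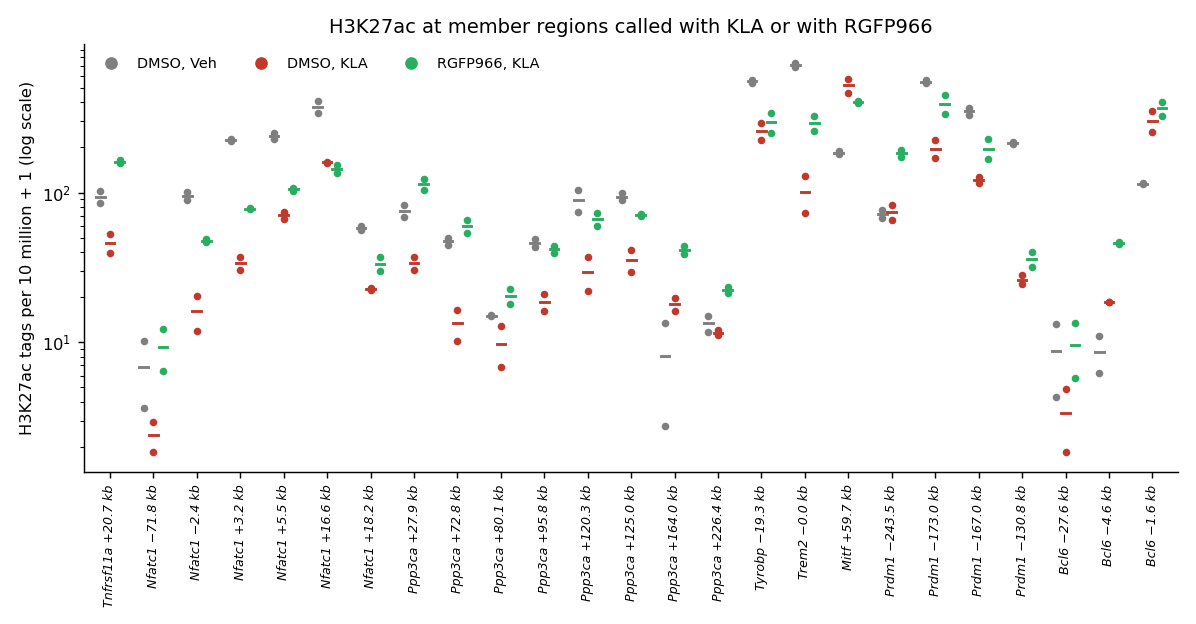
H3K27ac tags per 10 M plus 1, on a log axis, at the 25 member regions called with KLA or with RGFP966, in the 2 libraries each of DMSO_Veh, DMSO_KLA and RGFP966_KLA. Points are libraries and bars are group means, and at the Trem2 promoter the RGFP966_KLA points (321 and 258) lie between DMSO_KLA (127 and 71.5) and DMSO_Veh (691 and 727).

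Few members were called between genotypes. Between NKO and WT cells edgeR called 0 of 36 member regions with Veh (1.0% of all regions) and 0 with KLA (0.789%), and TMM and DESeq2's Wald test also called 0. The median log2 fold change of all regions was 0.304 with Veh and −0.037 with KLA, and 0.005 and 0.006 with TMM. A count of 0 does not show that the genotype had no effect. Between PGC1b flox/flox cells with and without LysMCre, both with KLA, 0 were called higher and 4 lower of 54 (0.702% and 6.81% of all regions), and 0 and 0 with TMM. At the Trem2 promoter the cells with LysMCre gave 114 and 93.8 with KLA and those without it 165 and 188 (−0.77, not called). The difference in KLA response between genotypes was called at 1 of 36 regions for NCoR (0.697% of all regions) and at 6 of 54 for PGC1b (5.37%), which the closing section lists by region.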

How the data were processed

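ChIP-seq libraries from mouse cells were analysed as 35 groups of 2, and the 30 input libraries were not analysed here. According to their methods, the authors aligned reads to mm10 with Bowtie2, made HOMER tag directories, called factor peaks with IDR between replicates, merged peaks over conditions, and deposited raw tag counts per region with at most 3 tags kept per position. Tool versions are not given in the sources used here. H3K27ac was counted over open chromatin regions (1000 bp windows in the PGC1b and RGFP966 tables). Values here are counts divided by the library total in the table header and given per 10 M tags. Groups were cross-linked alike within a target (disuccinimidyl glutarate and formaldehyde for factors, formaldehyde for H3K27ac).

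Regions with at least 4 tags (16 for H3K27ac) in 1 library were tested in edgeR 4.0.16 (R 4.3.3) with the quasi-likelihood test, the header totals as library sizes and Benjamini-Hochberg adjustment over all regions of a table. A call needs adjusted p below 0.05 and more than 2-fold change. Alternatives were TMM, DESeq2 1.42.0 size factors, DESeq2's Wald test, no filter, a replicate block and leaving out each library. The fits were tested on simulated data first. Sequences and gene spans are from RefSeq on GRCm38.p6, where 609965 of 609965 regions lay within their chromosome.

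The members and lists were chosen with earlier results of these data known. In each table the named regions of a member are the promoter region (within 2 kb), the region with the most tags and, for Day4 against Day0, the called region with the lowest p in each direction, plus, in BMDM tables, regions within 500 bp of those. For the lists of other pathway genes, the named region is the called region with the lowest p in each direction. The text says where another region was chosen after its values were seen. Labels call the libraries biological replicates without naming animals, so p-values measure the spread between 2 libraries. No 2 libraries were alike within sampling noise.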

Additional observations from a re-analysis of the deposited data

Results flagged for a closer look

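In 7 member regions the H3K27ac response to KLA differed between genotypes, by the interaction term in edgeR, adjusted over all regions. At the Fcer1g start the NKO response was lower than the WT response by a log2 difference of −1.07 (edgeR adjusted p = 0.039). WT cells went from 67.5 and 77.9 tags per 10 M with Veh to 161 and 190 with KLA, and NKO cells from 120 and 83.0 to 93.4 and 139. With TMM the difference was −0.72 and not called, and the call was lost without any 1 of 5 of the 8 libraries.

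The other 6 are differences between PGC1b flox/flox cells with and without LysMCre. The one with the lowest p was the region 38.1 kb upstream of Tnfrsf11a, beside the p300 region in Relch: cells with LysMCre went from 223 and 190 to 83.1 and 87.9, and those without it from 158 and 222 to 183 and 196 (−1.28, edgeR adjusted p = 1.6e-09). At Nfatc1 +5.5 kb the values were 180 and 198 and then 36.8 and 39.7 with LysMCre, and 171 and 202 and then 85.1 and 89.9 without (−1.21, edgeR adjusted p = 1.1e-05). The region assigned to Id2 at +41.3 kb lay outside that 2.29 kb gene, in an intron of another gene. There the values were 54.3 and 74.3 and then 22.4 and 37.8, and 61.7 and 41.6 and then 65.5 and 58.3 (−1.33, edgeR adjusted p = 0.0011). At Prdm1 −243.5 kb they were 54.3 and 43.8 and then 26.7 and 30.6, and 39.3 and 41.6 and then 48.4 and 66.4 (−1.28, edgeR adjusted p = 0.0048). The first 3 were called without any 1 of the 8 libraries and the Prdm1 region without 6 of 8, and all 4 were called with TMM (−1.09, −1.03, −1.14 and −1.09).

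The other two rested on more of the libraries. At Nfatc1 +18.2 kb the response was less negative with LysMCre, with 48.6 and 40.5 and then 22.4 and 16.9, against 76.9 and 68.6 and then 15.9 and 13 (1.14, edgeR adjusted p = 0.047; 1.32 and called with TMM). At Ppp3ca +52.6 kb counts were low, with 19.3 and 15.9 and then 3.61 and 4.56, against 17.4 and 9.01 and then 13.5 and 14.3 (−2.13, edgeR adjusted p = 0.035; −1.95 and not called with TMM). Each kept its call in 1 of the 8 fits that left out a library.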

How the results depend on the processing

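Of the counts of member regions called in 22 comparisons, 16 stayed within 1.5 times under TMM, 20 with no filter and 21 with the replicate block, and the cause of the changes was not tested. The p300 Day4 count of 54 became 15 with TMM, 15 with DESeq2 size factors and 5 with the Wald test. NCoR with ERKi (79) became 11, 11 and 10, RGFP966 (16) became 9, 9 and 9, LysMCre in PGC1b flox/flox cells with KLA (4) became 0, 0 and 0, and the NKO interaction (1) became 0, 0 and 0, and 2 with no filter. NKO against WT with KLA (0) became 1 with no filter. Fosl2 (19) became 31, 34 and 34, and 7 with the replicate block. Same-numbered libraries deviated together little (correlations from −0.027 to 0.088), so the numbers were taken as names, and the replicate block left 39 p300 Day4 calls.

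Leaving out 1 library gave counts of 20 to 61 for p300 Day4, 0 to 2 for ERK1 Day4, 4 to 16 for ERK1 with KLA, 35 to 79 for NCoR, 20 to 67 for HDAC3, 18 to 50 for PGC1b, 26 to 34 for PGC1b with DMSO, 61 to 101 for p65, 0 to 41 for Fosl2, 38 to 69 for NCoR with ERKi, 0 to 3 for the NKO interaction, 4 to 7 for LysMCre with KLA and 3 to 6 for the PGC1b interaction. Counts moved over 1.5 times without Day4 replicate 1 (21) or 2 (20) for p300, KLA replicate 1 (5) or 2 (4) for ERK1, KLA replicate 1 (35) or 2 (38) for NCoR, Veh replicate 1 (20) or 2 (23) for HDAC3, Veh replicate 1 (19) or 2 (18) for PGC1b, DMSO_Veh replicate 1 (26), KLA replicate 2 for p65 (61), either Veh library for Fosl2 (0), either KLA library for Fosl2 (39 and 41), KLA replicate 1 (38) or 2 (42) for NCoR with ERKi, LysMCre KLA replicate 2 (7) for LysMCre with KLA, and LysMCre Veh replicate 1 (3) for the PGC1b interaction.

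Among 498 values of named regions, 416 kept their direction and side of the threshold under TMM. Under TMM, size factors and the Wald test, 3 reversed: p65 at Fcer1g +2.3 kb (0.17 to −1.05, −1.02 and −1.02) and Tyrobp −19.3 kb (0.18 to −1.04, −1.0 and −1.0), and NCoR with ERKi at Prdm1 −143.5 kb (−1.17 to 0.0012, 0.014 and 0.015). At Day0, 24 of the 74 p300 regions held 0 tags in 1 or both libraries, 21 of them in replicate 2, where 1 tag is worth 2.13 per 10 M, so depth limits how low Day0 values can be read.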
